A study of Mus musculus with 104 samples.

Results

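GABA-A receptor subunit transcripts were followed from neuron to neuron in the mouse substantia nigra. The members were 7 genes taken by name from the 45808 gene rows of the table, whatever their values: the alpha subunits Gabra2, Gabra3, Gabra4 and Gabra5, the beta subunits Gabrb1 and Gabrb2, and the gamma subunit Gabrg1. Another 12 subunit genes of the family were kept as a separate list. Each library held the RNA of 1 neuron, drawn into a patch pipette from a brain slice and amplified by Smart-seq2, a method that copies full-length transcripts. The sample titles name 38 experiment and 66 control libraries, and both groups are labelled as dopaminergic neurons of the substantia nigra. The series design describes picking nigral neurons that carried inclusions of alpha-synuclein-6H-EGFP, a tagged form of the protein that aggregates in Parkinson disease. The labels give no strain, age, sex, virus or promoter for either group, and do not say what the control neurons carried.

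The GABA-A receptor is a chloride channel opened by GABA, the main inhibitory transmitter of the adult brain. It is a ring of subunits, most often of alpha, beta and gamma type. The GABA site lies between alpha and beta subunits and the classical benzodiazepine site between alpha and gamma subunits, and the alpha subunit largely sets the kinetics, place and drug response of the channel. Nigral dopaminergic neurons receive dense GABA input from the striatum, the globus pallidus and the neighbouring pars reticulata, and this input shapes their pacemaking and bursts.

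A residue of the alpha subunits that decides the response to classical benzodiazepines separates Gabra4 from the other 3 alpha members. The 27 coding bases around it are shown because the alpha subunits that each neuron held are described below. They are given from 5′ to 3′ on the gene's own strand, and the capitals mark the codon of that residue.
Gabra2: gataccttctttCACaatgggaaaaag
Gabra3: gataccttcttcCACaatggtaaaaaa
Gabra5: gacacgttcttcCACaacggcaagaag
Gabra4: gatactttcttcAGGaatggaaagaaa
CAC encodes histidine, present in alpha subunits of benzodiazepine-sensitive receptors, and AGG encodes arginine, present in alpha subunits of insensitive ones. The sites lie in coding exons on the minus strand of GRCm38, at chr5:71014493-71014519 for Gabra2, chrX:72501156-72501182 for Gabra3, chr7:57488879-57488905 for Gabra5 and chr5:71641140-71641166 for Gabra4.

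In all 7 members the second membrane-spanning segment lines the channel pore. A stretch of 54 coding bases that takes in part of this segment, not all of it, is shown to let the genes be compared. It was located by a run of amino acids that every member has, so its first codons encode the same residues by choice. Capitals stand at the 29 positions where the members do not all have the same base.
Gabra2: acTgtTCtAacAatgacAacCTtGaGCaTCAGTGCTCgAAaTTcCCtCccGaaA
Gabra3: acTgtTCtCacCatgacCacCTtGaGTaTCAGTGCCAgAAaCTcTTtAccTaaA
Gabra4: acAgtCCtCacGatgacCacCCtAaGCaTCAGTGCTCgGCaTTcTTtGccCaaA
Gabra5: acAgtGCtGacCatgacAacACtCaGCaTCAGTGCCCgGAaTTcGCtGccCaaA
Gabrb1: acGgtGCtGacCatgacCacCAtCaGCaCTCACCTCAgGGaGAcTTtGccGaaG
Gabrb2: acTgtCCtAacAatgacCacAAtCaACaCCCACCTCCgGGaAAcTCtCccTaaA
Gabrg1: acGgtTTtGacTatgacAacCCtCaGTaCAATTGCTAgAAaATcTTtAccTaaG
Pairs of alpha members shared 39 to 44 of the 54 bases, alpha and beta members 30 to 35, and Gabrb1 and Gabrb2 41. Over whole transcripts, the longest run of identical bases in the 21 pairs of members was 10 to 24 bases. Both sets of sequences come from the GENCODE M21 transcripts of GRCm38.

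The genes lie in part side by side. On GRCm38, Gabrg1 (chr5:70751047-70842617, minus strand), Gabra2 (chr5:70957597-71095849, minus), Gabra4 (chr5:71569749-71658308, minus) and Gabrb1 (chr5:71658113-72149037, plus) form a cluster. Gabra3 lies at chrX:72432681-72656848 (minus), Gabra5 at chr7:57407672-57510059 (minus) and Gabrb2 at chr11:42419757-42629028 (plus). Gabra4 and Gabrb1 start head to head with spans that overlap by 196 bases, of which 46 are exon of both genes. Gabra5 shares 148 exon bases with genes that overlap it. Whether the counting used strand is not stated in the labels, so reads from these shared bases cannot be told apart.

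The libraries held 116567 to 3094036 gene counts, with medians of 960027 in experiment and 1039851 in control. The dopaminergic label was checked on its markers: Th, the rate-limiting enzyme of dopamine synthesis, and the dopamine transporter Slc6a3 had counts in all 104 libraries. Experiment 27 stood apart, with the lowest summed level of the 11 dopaminergic markers (578 CPM, counts per 1000000 gene counts, against a median of 17027 in its group) and the highest of the 13 astrocyte markers (9298 CPM). Fewer genes were found in experiment libraries, with a median of 6904 against 8466 after each library was thinned to 400000 counts. No label says which animal a neuron came from. Each group therefore counts as 1 sample, neurons are not replicates, and no p-value is given. Intervals below cover counting error only, and since the reads carry no molecular identifiers they understate it.

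Gabra4 was the most abundant alpha member. This subunit is best known from receptors outside the synapse. Its lowest, median and highest levels were 0, 108 and 884 CPM in control neurons and 0, 70.9 and 663 CPM in experiment neurons. The highest neurons were control 51 and experiment 4, and the groups overlapped over almost the whole range. Gabra4 had a count in 61 of 66 control and 30 of 38 experiment libraries, and 26 experiment neurons lay below the control median. Its pooled level, all counts of a group over all its gene counts, was 97.6 CPM in experiment and 122 CPM in control, a ratio of 0.802 (95% interval 0.772 to 0.833).

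Gabra2, an alpha subunit of synapses on many forebrain neurons, had a median of 5.86 CPM in control (0 to 237) and 6.41 CPM in experiment (0 to 192). A count was present in 44 of 66 control and 25 of 38 experiment libraries, and 19 experiment neurons lay above the control median and 19 below. The pooled levels were 30.05 CPM in experiment and 33.2 CPM in control, a ratio of 0.904 (0.843 to 0.969). A few neurons carried much of the summed count: the 5 libraries with the most counts held 70.1% of all Gabra2 counts in experiment and 48.97% in control.

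Gabra3, an alpha subunit prominent in monoaminergic neurons, was the member furthest below control among those with enough counts to be compared. Its lowest, median and highest levels were 0, 1.45 and 144 CPM in control and 0, 0 and 139.8 CPM in experiment. It had a count in 37 of 66 control and 15 of 38 experiment libraries, and the ranges of the groups overlapped fully. The pooled level was 10.1 CPM in experiment against 19.9 CPM in control, a ratio of 0.509 (0.455 to 0.568). The ratio was 0.360 without experiment 23 and 0.569 without control 52, the single libraries that moved it most in either direction.

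Gabra5, an alpha subunit known from receptors outside the synapse, was found in a minority of neurons. Its median was 0 CPM in both groups and its highest levels were 201 CPM in control 60 and 176 CPM in experiment 13. A count was present in 21 of 66 control and 11 of 38 experiment libraries. The 5 libraries with the most counts held 97.3% of the Gabra5 counts in experiment, so the pooled ratio of 0.767 (0.678 to 0.866) rests on few neurons. Without experiment 13 the ratio was 0.498, without control 60 it was 1.14, and with each neuron weighted equally it was 1.12.

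Gabrb1 was the beta member found in most neurons. Its lowest, median and highest levels were 0, 72.1 and 630 CPM in control and 0, 58.5 and 445 CPM in experiment, with the highest values in control 15 and experiment 49. The gene had a count in 60 of 66 control and 33 of 38 experiment libraries. Pooled levels of 94.8 CPM in experiment and 87.4 CPM in control gave a ratio of 1.09 (1.04 to 1.13), and 18 of 38 experiment neurons lay above the control median.

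Gabrb2, the beta partner of many synaptic receptors, was present in fewer neurons, 40 of 66 control and 21 of 38 experiment libraries. Its medians were 12.4 CPM in control (0 to 182) and 5.29 CPM in experiment (0 to 329.7). Experiment 3 alone exceeded the highest control neuron. Pooled levels of 26.4 CPM in experiment and 24.7 CPM in control gave a ratio of 1.07 (0.988 to 1.15, counting error only).

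Gabrg1, a gamma subunit that neurons of the midbrain and some glial cells are known to express, was the rarest member. Its median was 0 CPM in both groups, with counts in 17 of 66 control and 9 of 38 experiment libraries. The highest levels were 77.8 CPM in control 15 and 193 CPM in experiment 52, and 29 experiment neurons had no count. Over all libraries its pooled level was 9.22 CPM, under the minimum of 10 CPM set for the comparison, so Gabrg1 is left out of the counts of members past 1.5-fold and of their median ratio.

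**Figure D1:**
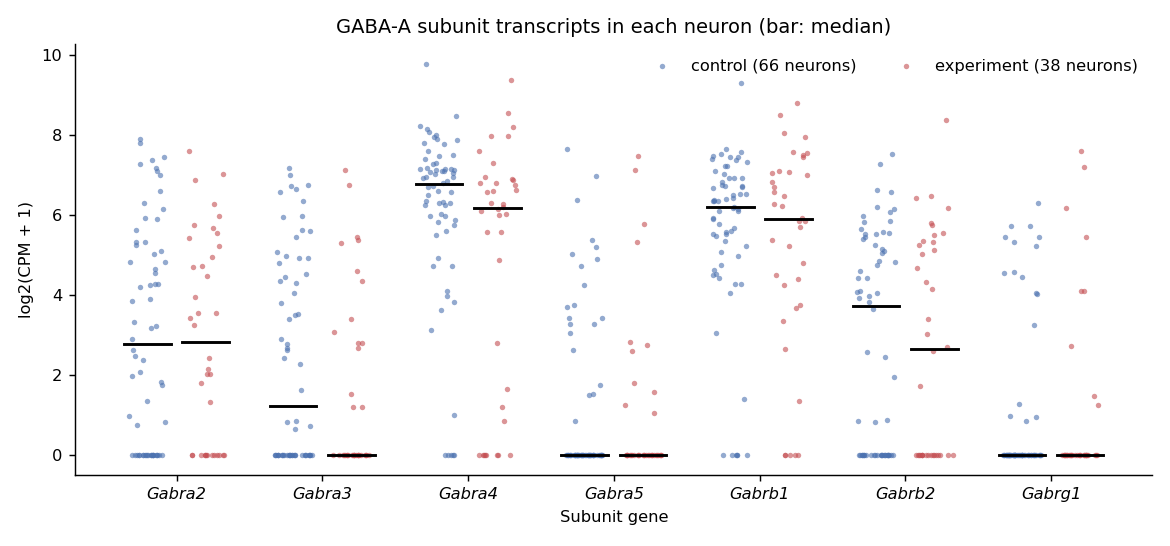
Each point is 1 neuron, with its log2(CPM + 1) of each subunit gene on the vertical axis, in 66 control and 38 experiment neurons, and the bar is the group's median. Gabra4 and Gabrb1 form a high band in most neurons of both groups, while Gabra5 and Gabrg1 lie at 0 in most.

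Levels can be set side by side between genes only per length, because full-length libraries give longer transcripts more reads. Per kilobase of annotated exon, pooled over all 104 libraries, Gabra4 stood first at 18.6 CPM. Gabrb1 followed at 6.50, Gabra2 at 4.204, Gabra3 at 4.19, Gabrb2 at 3.98, Gabra5 at 3.76 and Gabrg1 at 1.17 CPM per kilobase. Gabra4, Gabrb1 and Gabrg1 kept the first, second and last place in each group, and the order between them differed. In control Gabra3 came next after Gabrb1 at 5.06, before Gabra2 at 4.35, Gabra5 at 4.09 and Gabrb2 at 3.89. In experiment Gabrb2 came next at 4.145, before Gabra2 at 3.93, Gabra5 at 3.14 and Gabra3 at 2.58. The range from the lower to the upper quartile of neurons reached from 4.80 to 23.2 CPM per kilobase for Gabra4 and from 1.59 to 8.89 for Gabrb1, and the ranges of all neighbours in this order overlapped. Gabrb1 has 13838 annotated exon bases, of which 1422 are coding. Per coding kilobase Gabra4 and Gabrb1 were close, at 65.3 and 63.3 CPM, and Gabra2 followed at 23.7, Gabrb2 at 16.5, Gabra3 at 10.3, Gabra5 at 8.05 and Gabrg1 at 6.61. Gabra4 was the highest member per exon kilobase in 44 of 66 control and 20 of 38 experiment neurons. Gabrb1 was the highest in 5 control and 5 experiment neurons per exon kilobase and in 24 and 16 per coding kilobase. Per coding kilobase Gabra4 led in 27 and 11.

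At equal depth, Gabra4 was found in fewer experiment than control neurons. Of the libraries, 4 experiment and 6 control ones were too shallow to be thinned to 400000 counts. In the others it had a count in 25 of 34 experiment neurons (73.5%, exact binomial 95% interval 55.6 to 87.1) and 58 of 60 control neurons (96.7%, 88.5 to 99.6). These intervals cover counting error over these neurons only, hold no spread between animals, and do not compare the groups. Gabra3 had a count in 12 of 34 experiment neurons (35.3%, 19.8 to 53.5) and 32 of 60 control neurons (53.3%, 40 to 66.3). Gabrb1 was found in 29 and 57, Gabra2 in 21 and 39, Gabrb2 in 18 and 35, Gabra5 in 9 and 19, and Gabrg1 in 8 and 14. The number of genes found at this depth was also lower in experiment, as given above, and its part in the Gabra4 result was not tested. The dopaminergic markers moved with it too: 10 of 11 were lower in experiment by pooled CPM, and their summed level was 578 to 24640 CPM there and 2130 to 35021 CPM in control. The part of this in the Gabra4 result was not tested. Before thinning, 78.95% of all experiment and 92.4% of all control libraries had a count of Gabra4. By the title sets described below, these were 18 of 21 experiment and 26 of 31 control libraries in set 1. In set 2 they were 12 of 17 and 35 of 35, so before thinning the gap lay in title set 2. Controls 30, 32 and 36 of set 1, all too shallow to be thinned, had no count of Gabra4. The split by title set was not made at equal depth and may differ there.

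**Figure D2:**
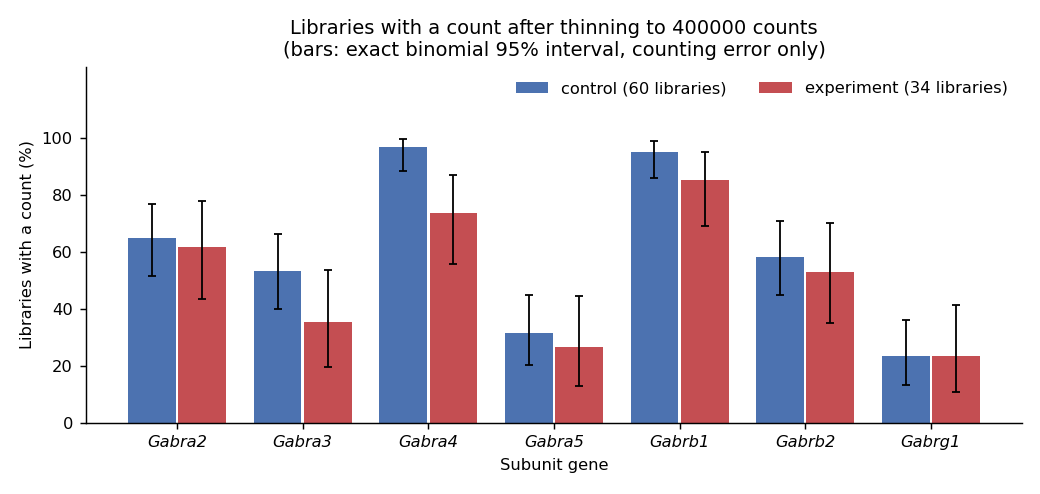
Bars give the percentage of libraries with a count of each subunit gene after thinning to 400000 counts, for 60 control and 34 experiment libraries, and lines give the exact binomial 95% interval, which covers counting error over these neurons and no spread between animals. Gabra4 stands at 96.7% in control and 73.5% in experiment, and Gabrg1 is lowest at 23.3% and 23.5%.

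Most neurons held several members at once. The median number of members with a count in the thinned libraries was 4 in control and 3.5 in experiment. Its direction differed between the record blocks described below: in blocks 1 to 4 it was 2.5, 5, 3.5 and 3 in experiment and 5.5, 4, 3 and 5 in control. All 60 control neurons held at least 2 members, whereas 5 of 34 experiment neurons held 1 or none. At least 1 alpha and at least 1 beta member were found together in 59 of 60 control and 28 of 34 experiment neurons, and no alpha member was found in 4 experiment neurons and in no control neuron. The commonest pair was Gabra4 with Gabrb1, together in 57 of 60 control and 24 of 34 experiment neurons. Among alpha members, Gabra2, Gabra3 and Gabra4 together formed the commonest set, in 14 control and 7 experiment neurons, followed by Gabra2 with Gabra4 in 12 and 7. Gabra4, with the arginine codon shown above, was thus mostly found beside alpha members with the histidine codon, and was the only alpha member with a count in 7 control and 4 experiment neurons. A missing count at this depth does not show that a transcript was absent. Fewer genes of any kind were found in experiment at this depth, and the part of that in these counts was not tested.

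Between the groups, 1 of the 6 members that passed the minimum was at least 1.5-fold lower in experiment by pooled CPM, Gabra3. Of 9113 genes that passed it, 15.5% were at least 1.5-fold lower. No member was at least 1.5-fold higher, against 11.1% of all genes. The median log2 ratio of the 6 members was -0.23, and that of all genes was -0.035. A share of 1 in 6 is near the background of all genes. With each neuron weighted equally the same member was past 1.5-fold, against 13.5% of all genes lower and 10.3% higher, and by both weightings 11% of all genes were lower and 7.77% higher.

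Within smaller sets of libraries the ratios spread widely. By their titles and their order, the records fall into 4 runs, called record blocks here, of 7, 14, 12 and 5 experiment and 10, 21, 18 and 17 control libraries. Blocks 1 and 2 form title set 1 and blocks 3 and 4 title set 2, since the control titles of the later blocks are spelled in lower case. No label names these runs as batches. Gabra3 was lower in blocks 1, 2 and 3, with log2 ratios of -1.30, -0.50 and -2.53, and stood at 0.11 in block 4, where experiment 49 held all of its experiment counts. Gabra4 stood at 0.42 in block 1, where experiment 4 held 59.04% of the experiment counts, and at -0.49, -0.79 and -0.79 in blocks 2, 3 and 4. No member kept 1 direction in all 4 blocks, as 18.0% of all genes did.

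The scarcer members turned on single neurons within blocks. Gabra2 had log2 ratios of -0.91, -0.76, 2.94 and -0.002, and experiment 45 held 56.9% of its experiment counts in block 3. Gabra5 had -0.90, 2.57, -4.11 and -0.59, with 71.96% of the experiment counts of block 2 in experiment 13. Gabrb1 went from -0.91 in block 1 over -0.06 and 0.34 to 0.96 in block 4, while Gabrb2 stayed between -0.07 and 0.23. These values describe the blocks, and with 5 to 21 libraries in each their order was not tested. At least 1.5-fold lower were 4, 1, 3 and 2 of the 6 members in blocks 1 to 4, against 35.2%, 24.7%, 25.6% and 32.3% of all genes. At least 1.5-fold higher were 0, 1, 1 and 1, against 24.1%, 15.8%, 18.9% and 26.5%. In title sets 1 and 2, 2 and 3 members were lower, against 25% and 20.3% of all genes, and 0 and 1 higher, against 14.9% and 16.8%.

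**Figure D3:**
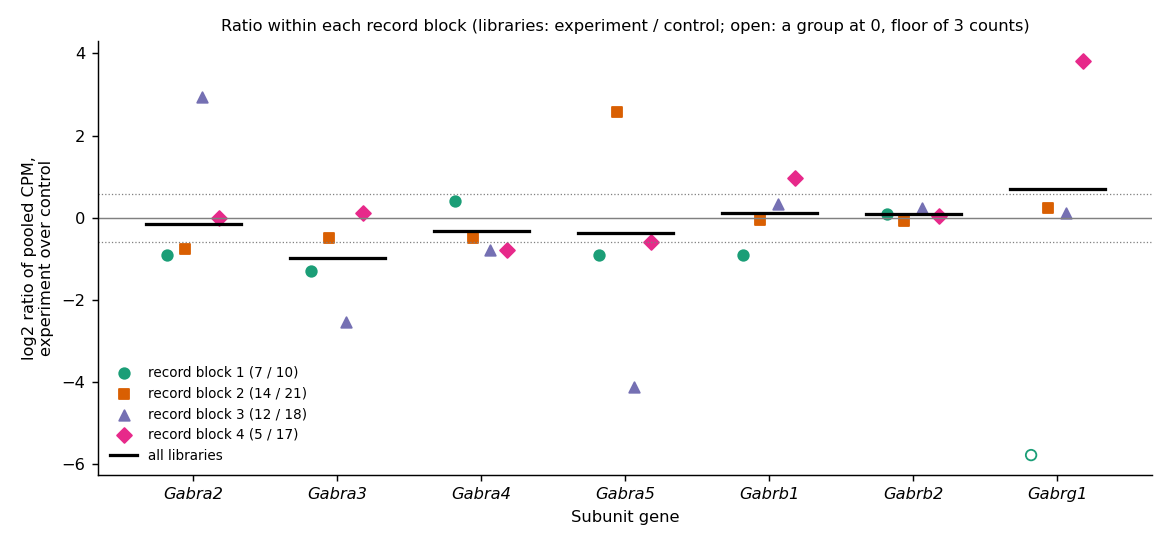
Symbols give the log2 ratio of pooled CPM, experiment over control, within each of 4 record blocks, and black bars give it over all libraries. Dotted lines mark 1.5-fold, and the open symbol is a block in which the experiment libraries had no count, drawn from the floor of 3 counts. Gabrb2 lies near 0 in every block, and the blocks scatter on both sides of 0 for the other members.

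Gabrg1 was higher in experiment by pooled CPM, 12.2 against 7.59 CPM, a ratio of 1.61 (1.43 to 1.82), but a handful of libraries carried this value. In experiment, 5 libraries held 96.3% of its counts. Without experiment 52 the ratio was 1.10, and it also went under 1.5 without experiment 27, 37 or 49. Title set 1 gave a log2 ratio of -1.31 for Gabrg1, and title set 2 gave 1.99. In block 1 no experiment library had a count, against 215 counts in 7 of 10 control libraries. Some libraries rich in Gabrg1 were also rich in glial markers. Experiment 52 had the highest summed level of the 10 oligodendrocyte markers (10020 CPM) and 6250 CPM of astrocyte markers. Experiment 27 had the highest astrocyte sum. Not all were: control 41, the second highest control library for Gabrg1 (52.3 CPM), had 183 CPM of astrocyte markers, against a control median of 353. Across all libraries, the 10 expressed astrocyte markers of 13 were all higher in experiment, with summed levels of 3.89 to 9298 CPM in experiment and 74.1 to 1881 CPM in control. No marker of the list was at 0 in either group. The GABAergic markers moved too: the 5 expressed ones of 7 were all higher in experiment, with a median log2 ratio of 1.53 against 1.38 for the astrocyte markers. Their summed level was 0 to 1823 CPM in experiment and 0 to 1115 CPM in control, no marker was at 0 in either group, and experiment 49 held 1799 CPM. The log2 ratio of Gabrg1 was -2.25 without the 25% of libraries highest in astrocyte markers, -3.53 without the 25% highest in GABAergic markers and -2.45 without the 25% highest in mitochondrial share. These cuts fell unevenly, leaving 22, 23 and 24 of 38 experiment libraries and 56, 55 and 54 of 66 control libraries. The part of RNA from other cells in the Gabrg1 result was not tested.

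From neuron to neuron, the members varied largely apart from each other. Spearman's rho of log2(CPM + 1) had a median of 0.041 over the 21 pairs in 66 control neurons, from -0.168 for Gabra4 with Gabra5 to 0.265 for Gabra2 with Gabrg1. In 38 experiment neurons the median was 0.161, from -0.158 for Gabra4 with Gabra5 to 0.423 for Gabra2 with Gabrb1. In all, 154 relations were computed per group, and the points of each share depth, amplification and record block, so the values describe these libraries. The correlation of the members with the number of genes found ranged from -0.074 to 0.15 in control and from 0.167 to 0.509 in experiment.

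Gabra4 varied with the dopaminergic markers. Its rho with their summed level was 0.455 in control and 0.478 in experiment, and within the title sets it was 0.425 and 0.348 in control and 0.575 and 0.442 in experiment. With Th alone it was 0.401 in control and 0.439 in experiment. The other members had values of -0.299 to 0.136 with this sum in control and -0.223 to 0.025 in experiment. Gabrg1 was lowest with this sum in both groups, and its rho with the astrocyte sum was 0.305 in control and 0.548 in experiment. With the oligodendrocyte sum Gabrg1 had 0.370 and 0.421, and with the GABAergic sum 0.343 and 0.358. Gabra5 had a rho of -0.505 with Aldh1a1, a marker of ventral-tier nigral neurons, in experiment, with -0.560 and -0.471 in the title sets, but -0.072 in control. The other subtype markers compared had rho with Gabra5 in experiment from -0.281 for Anxa1 to 0.325 for Calb1, and Sox6 had 0.103. Gabra5 had a count in 11 experiment neurons only, so these values rest on few points.

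**Figure D4:**
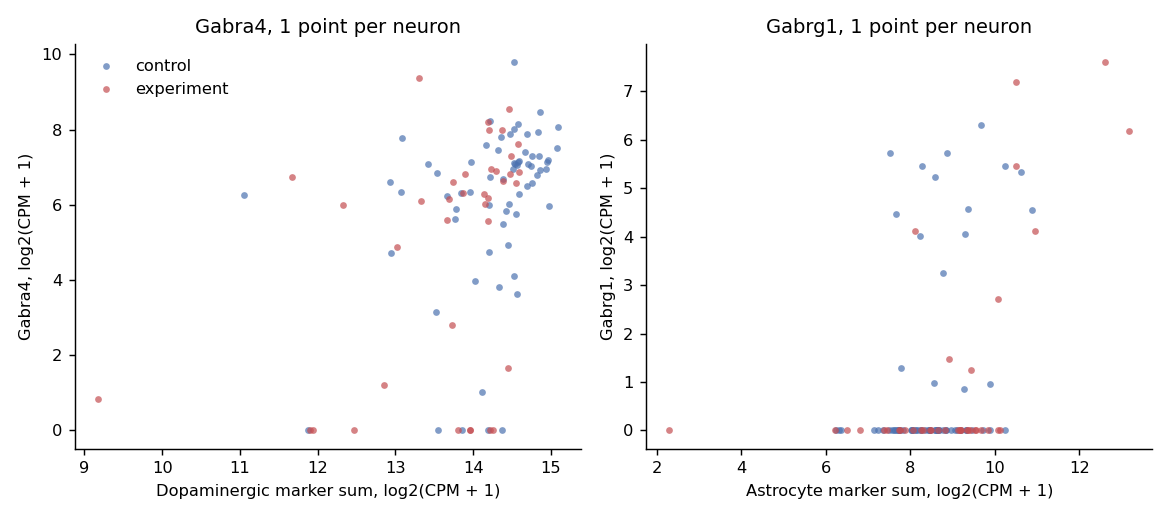
Each point is 1 neuron. The left panel plots Gabra4 against the summed dopaminergic markers and the right panel Gabrg1 against the summed astrocyte markers, all as log2(CPM + 1). Gabra4 tends to be higher where the dopaminergic sum is higher, with rho of 0.455 in control and 0.478 in experiment, and most neurons lie at 0 for Gabrg1.

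**Figure D5:**
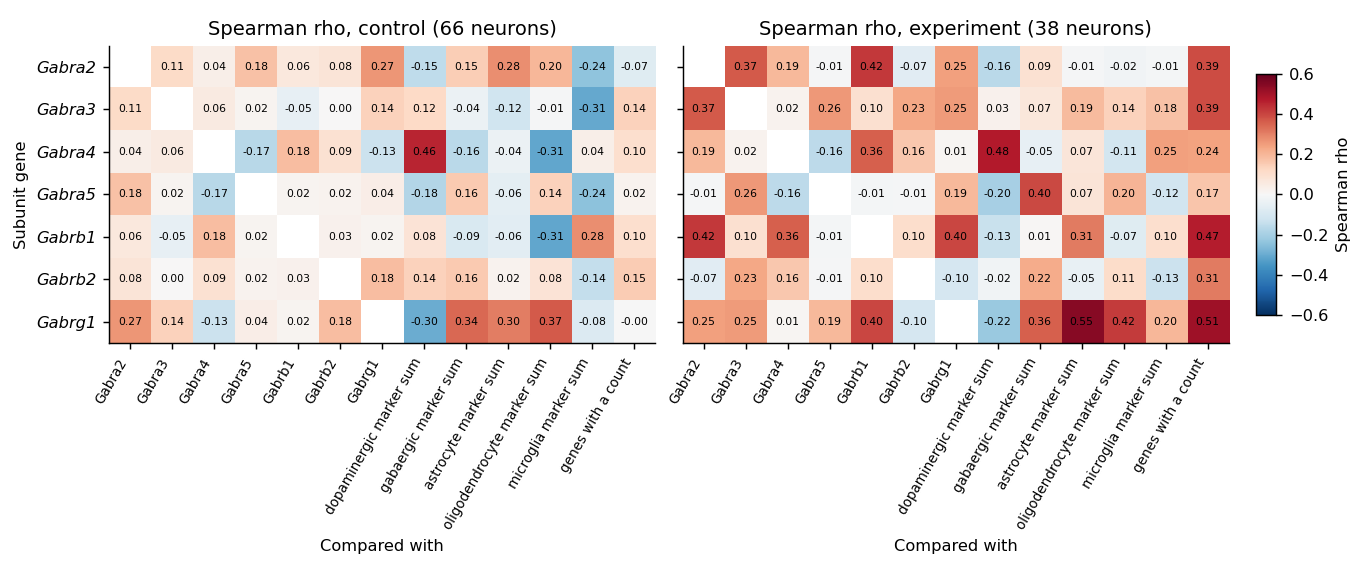
Cells give Spearman's rho of log2(CPM + 1) between each subunit gene and the other members, marker sums and number of genes with a count, for 66 control neurons on the left and 38 experiment neurons on the right. Values between members are mostly near 0 in control, and Gabra4 with the dopaminergic sum has 0.455 in control and 0.478 in experiment.

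The genes whose pattern over the 66 control neurons was most like that of each member, 3 per member among 8660 genes, had rho of 0.424 to 0.571. For Gabra4 they were Ppip5k1 (0.482), Cpq (0.480) and Ccdc107 (0.448). Gabra2 was most like Bhlhe40, Tsen34 and Nxf1 (0.458 to 0.466), Gabra3 like Rfesd, Mad1l1 and Zbtb1 (0.424 to 0.504), and Gabra5 like Pcsk2, Usp11 and Yipf5 (0.475 to 0.557). Gabrb1 was most like Mrpl28, Oxa1l and Actr3b (0.479 to 0.496), Gabrb2 like Prrt1, Ndufaf7 and Ndufa10 (0.458 to 0.571), and genes most like Gabrg1 included Rock2 (0.471) and Car10 (0.463). In the 38 experiment neurons, which took no part in the choice, 9 of these 21 genes had a rho below 0 with their member. For these 9, from 6.085% to 29.65% of all 8660 genes had a lower rho still. In the same neurons 4 reached 0.3, among them Ccdc107 with Gabra4 (0.518), Rfesd with Gabra3 (0.410) and Bhlhe40 with Gabra2 (0.339). These 3 stood above 99.62%, 98.31% and 94.45% of all genes. The 99th percentile of all genes in experiment was 0.403 to 0.491 by member, and of the 3 only Ccdc107 passed it.

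Other genes of GABA transmission were read as fixed lists, against the 15.5% of all genes that were at least 1.5-fold lower and the 11.1% that were higher. Of the 12 other GABA-A subunit genes, 4 passed the minimum, with pooled levels of 17.2 to 209 CPM, and 1 was at least 1.5-fold lower and none higher, with a median log2 ratio of -0.42. Of 24 proteins that anchor or traffic the receptor at the synapse, 21 passed. In this list 3 genes were lower, near that background, and 1 was higher, and the median stood at -0.14. Iqsec3, a partner of the inhibitory synapse scaffold gephyrin, had a ratio of 0.472 and was below 1 in both title sets. Hap1, which links receptors to transport motors, had a ratio of 0.643, but its log2 ratio was -1.49 in title set 1 while title set 2 gave 0.18. The motor adaptor Trak2 had a ratio of 1.601. Of 14 genes for the GABA-B receptor, its channels and GABA and chloride handling, 10 passed. Of these, 2 were lower and 2 higher, and the median stood at -0.17. The GABA-B subunit Gabbr1 had a ratio of 0.587, the potassium channel Kcnj3 2.33 and the chloride importer Slc12a2 1.56. Title set 1 gave Kcnj3 a log2 ratio of 1.10, while title set 2 gave 0.09. For Slc12a2 these values were -0.22 and 1.501. Of the 4 glycine receptor genes, 2 passed, Glra3 with a ratio of 0.662 and Glrb with 0.849.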

How the data were processed

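The authors deposited 1 table with the count of whole reads per gene symbol in each of 104 libraries. The submitters' processing notes name STAR 2.5.3a, featureCounts 1.5.3 and the build mm10, another name of GRCm38, with no role or order. Annotation, strand use and the counting of multi-mapping reads were not given in the sources used here. All 92 ERCC spike-in rows were kept out of library totals, and no 2 libraries held identical counts.

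Groups came from the sample titles. CPM were computed from the deposited counts, and a pooled ratio compared summed counts of the groups, with an exact interval that covers counting error only. Genes were compared where pooled CPM reached 10 and a count was present in 25% or more of either group's libraries, and a ratio past 1.5-fold was called. Log values used a pseudocount of 1 CPM. The members, the gene lists and the rules were chosen with earlier results of these data known. All 7 members were named. In each other list up to 4 genes were named, ranked by whichever of the pooled and the equal-weight log2 ratio was smaller, and for each member the 3 genes of highest rho in control. Single genes of the list of other subunits, and some genes that these rules pick, are not reported here. Alternatives were equal weights, mean log2 values, TMM sizes (edgeR 4.0.16), DESeq2 1.42.0 size factors, thinning, subsets of libraries and leaving out single libraries. The ratio calculation was run on simulated counts with known fold changes and no difference between blocks or animals. That run does not show how far the ratios of scarce members can be trusted. Python 3.11.15, pandas 2.3.3 and R 4.3.3 were used.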

Additional observations from a re-analysis of the deposited data

How the results depend on the processing

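No paired analysis was possible because no result comes from a test and replicate numbers tie no experiment library to a control library. The count of members at least 1.5-fold lower was 1 over all libraries. Title set 1 gave 2, title set 2 gave 3, and record blocks 1, 3 and 4 gave 4, 3 and 2. It was 3 without the 25% of libraries highest in astrocyte markers, where 20.4% of all genes were lower, and 2 without the 25% highest in mitochondrial share, where 19.9% were. The count at least 1.5-fold higher was 0, and it was 1 in title set 2, in record blocks 2, 3 and 4, without the 25% highest in mitochondrial share (14.2% of all genes), and with no minimum level, where the gene is Gabrg1. The median log2 ratio of the members, -0.23 over all libraries, moved to -0.096 under equal weighting, to 0.09 by mean log2(CPM + 1) relative to all genes (whose median difference was -0.375 on that scale), to -0.099 after thinning and to -0.35 in title set 2. It was -0.91 in block 1, 0.015 in block 4, -0.38 without the highest library of each group, -0.495 without the libraries highest in astrocyte markers and 0.068 without those highest in GABAergic markers. Without the 25% with the fewest genes, a choice made after seeing the data, it was 0.048. This cut left 25 experiment and 53 control libraries, and the other cuts of 25% left 22 to 24 experiment and 54 to 56 control libraries. Gabra3 was below 0 in all 9 alternatives over both title sets, from -2.26 to -0.48, past 1.5-fold in 8 and not by mean log2(CPM + 1), and it reversed to 0.11 in block 4. Gabrg1 reversed to -1.31 in title set 1, -5.77 in block 1 (from the floor of 3 counts), -2.25, -3.53 and -2.45 without the 25% highest in astrocyte markers, GABAergic markers and mitochondrial share. Leaving out single libraries, a step added after seeing the data, moved the log2 ratio of Gabra3 from -1.47 to -0.81 and that of Gabrg1 from 0.13 to 0.91. Gabra2 without experiment 2 (ratio 0.652), Gabra4 without experiment 4 (0.637) and Gabra5 without experiment 5 or 13 went past 1.5-fold lower. Without control 60 the ratios of Gabra2 and Gabra5 instead rose above 1, to 1.027 and 1.14. The cause of these differences was not tested.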
